A study of Rattus norvegicus with 30 samples.

Results

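MicroRNA miR-31 knockout rats kept on a zinc-sufficient (ZS) diet were compared with unedited rats on the same diet. Members were the 9 arrays of the oesophageal epithelium whose sample titles name one of these groups, out of 30 arrays in the series: 4 from ZS knockout rats (arrays 30 to 33) and 5 from ZS unedited rats (arrays 16 to 20), 1 rat per array. All were male Sprague-Dawley rats placed on their diet at 4 weeks of age. All received the oesophageal carcinogen N-nitrosomethylbenzylamine (NMBA) by stomach tube, 4 weekly doses of 2 mg/kg from week 5, and the unedited tissue was collected 15 weeks after the first dose. The knockout rats lacked both copies of miR-31 in every cell, after CRISPR/Cas9 editing, and followed the same NMBA protocol. ZS unedited rats were pair-fed to zinc-deficient (ZD) rats and received no antimiR oligonucleotide; the labels do not say whether ZS knockout rats were pair-fed. The knockout rats formed an experiment of their own with littermate controls that were not analysed here, so genotype, litter, experiment and array set coincide and cannot be told apart in any result below. Arrays of 6 ZD knockout and 5 ZD unedited rats served to ask whether the genotype difference was the same on both diets.

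MicroRNAs are short RNAs that pair with transcripts, mainly through the seed at their 5′ end, and lower the amount or the translation of those transcripts. miR-31 is abundant in squamous epithelia and is known as a microRNA that rises in the oesophagus of zinc-deficient rats and in squamous carcinoma, where the kinase-like protein STK40, an inhibitor of NF-kB signalling, is among its reported targets. Loss of a microRNA is therefore expected, as background, to raise transcripts that carry its seed sites.

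The removed sequence is shown because every comparison turns on it. The rat gene Mir31 lies on the minus strand of chromosome 5, and RefSeq gives both arms of its hairpin on build GRCr8, with the seed (bases 2 to 8 from the 5′ end) in capitals here. A second microRNA gene, Mir3554, runs over the same place on the plus strand, so a deletion at this site can take out both; which bases were deleted is not given in the sources used here.
rno-miR-31a-5p, chr5:108714906-108714927, minus strand: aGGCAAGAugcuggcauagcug
rno-miR-31a-3p, chr5:108714869-108714891, minus strand: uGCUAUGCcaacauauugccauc
rno-miR-31b from Mir3554, chr5:108714909-108714927, plus strand: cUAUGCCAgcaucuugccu
The 3 seeds differ from each other, so no pair of these RNAs shares a seed. The arrays held no measure of miR-31, so the knockout could not be checked on them.

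Knockout and unedited arrays differed in technical measures before any gene was compared. Array medians of the deposited log2 values lay between 5.86 and 5.93 on the ZS knockout arrays and between 5.41 and 5.45 on the ZS unedited arrays, so all arrays were quantile normalized together. After that, all 42 probe sets for bacterial and phage control RNA were lower on knockout arrays, by 0.25 to 1.32 log2 units, with a median difference of -0.75. The 5S ribosomal RNA control probe set averaged 5.60 on ZS knockout arrays and 7.75 on ZS unedited arrays. The difference between the 3′ and 5′ probe sets of beta-actin, a measure of how complete the labelled RNA was, was 2.08, 1.37, 1.29 and 1.23 log2 units on knockout arrays 30 to 33, against 2.33 to 2.77 on ZS unedited arrays (exact two-sided permutation p = 0.0159, the smallest that 4 against 5 allows). Hexokinase went the other way, with 1.42 to 1.59 on ZS knockout arrays against -0.05 to 0.30 on ZS unedited arrays (exact two-sided permutation p = 0.0159), and Gapdh differences overlapped (0.01 to 0.48 against 0.25 to 0.43, exact permutation p = 0.143). ZD knockout arrays did not share this shift: their beta-actin difference ran from 2.37 to 4.34 (exact permutation p = 0.00952 for ZS knockout against ZD knockout arrays, the smallest that 4 against 6 allows). The labels give an RNA integrity number of at least 8 for every sample. The part of these measures in the results was not tested beyond a fit with the beta-actin difference as a covariate, in which 14 of 87 called genes followed through all alternatives lost their call. Among genes described below, Acta1, Myl3, Tnnc2, Ckm, Pvalb, Syt16, Fgf3, Acot1, Cyp26b1, Hsd11b2, P2rx2, Adh6a, Ndrg1, Ldha, Vegfa, Lama3, Kif11, Gclm, Cd3d, Cxcl9, Sele, RT1-S3, Slc4a1 and Id1 did not pass in that fit (adjusted p from 0.05 for Slc4a1 to 0.251 for Adh6a). The covariate itself separates the ZS groups, so a call lost in this fit need not mean a smaller change. In it Acta1 went from 3.25 to 3.49, Tnnc2 from 2.80 to 3.16 and Ndrg1 from 1.20 to 1.18. Cyp26b1 went from -1.04 to -0.80 and Adh6a from -1.74 to -1.36.

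**Figure D1:**
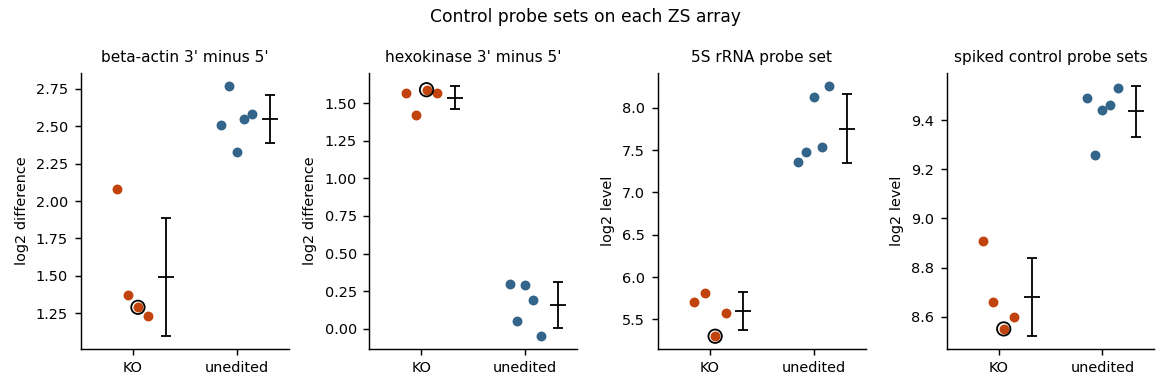
Control probe sets on each of the 9 ZS arrays: log2 difference between the 3′ and 5′ probe sets of beta-actin and hexokinase, and log2 level of the 5S rRNA probe set and of the mean of the spiked bacterial and phage probe sets. Points are arrays, knockout (KO) at left and unedited at right, the circled point is knockout array 32, and bars are mean ± SD; the groups do not overlap in any of the 4 panels.

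Knockout array 32 stood apart. Its correlation with the other 3 knockout arrays over 14217 genes was 0.973 to 0.982, against 0.991 to 0.995 among those 3, and its correlation with unedited arrays was 0.932 to 0.947, against 0.970 to 0.981 for the other knockout arrays. It was the highest array for most connective tissue and immune genes below. Without it 7 of these 87 genes lost their call, and 374 genes rose and 106 fell at 2-fold or more, against 658 and 193 with it. The label gives epithelium, but muscle RNA was present too: skeletal muscle actin Acta1 was at 12.39 to 13.17 on ZS knockout and 7.51 to 11.63 on ZS unedited arrays. Squamous epithelium was present in both groups: the squamous keratins Krt4 and Krt13 were at 14.09 to 14.29 and 14.01 to 14.09 on ZS knockout arrays, against 14.15 to 14.29 and 14.01 to 14.05 on ZS unedited arrays. The basal keratins Krt5 and Krt15 averaged 12.74 and 13.60 in ZS knockout and 12.58 and 13.48 in ZS unedited rats. None of these keratins passed the test. Their values are near the top of the scale, where arrays compress differences. When each array was only centred on its median the changes of Krt13 and Krt15 were -0.52 and -0.38. The basal cell factor Tp63, at 10.58 to 11.20 in ZS knockout and 10.58 to 11.07 in ZS unedited rats, did not pass (0.24, adjusted p = 0.0691). Without array 32 it did (0.38, adjusted p = 0.00278), and its other probe set gave -0.84.

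Differences were widespread and mostly small. With limma on the log2 values and Benjamini-Hochberg adjustment over 14217 genes, 7087 genes passed an adjusted p of 0.05 (49.8%), 3538 higher in ZS knockout rats (24.9%) and 3549 lower (25%). Of the genes called, 63.8% changed by less than 1.5-fold. At 2-fold or more, 658 genes rose (4.63%) and 193 fell (1.36%), against 1455 and 50 on the values as deposited and 504 and 387 with each array centred on its median. The 4 knockout and 5 unedited values did not overlap for 5401 genes (38%), of which 5026 were also called. The balance between directions depends on the scaling, since quantile normalization sets the arrays to a common distribution. On the values as deposited 6899 genes rose and 1220 fell, with a median change over all genes of 0.25, and with each array centred on its median 2375 rose and 6323 fell, with a median of -0.21, against -0.01 here. The count of each gene list below is to be read against the 24.9% and 25% of all genes that rose and fell, and the medians of 12 of the 25 lists turned sign under one of these scalings.

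Of the 15 largest increases 8 were genes of skeletal muscle. Acta1, skeletal muscle actin, was at 13.06, 12.39, 13.17 and 12.59 in ZS knockout rats, against 9.11, 10.13, 9.34, 7.51 and 11.63 in ZS unedited rats, a log2 change of 3.25 ± 1.05 (SE, adjusted p = 0.0124). Eno3 (muscle enolase, 2.81), Myl3 (a myosin light chain, 2.81), Tnnc2 (fast troponin C, 2.80), Tcap (2.67), Smpx (2.61), Pygm (muscle glycogen phosphorylase, 2.45) and Trim54 (2.34) went with it. All of these spread widely among the unedited rats, and array 19 had the lowest level of each. Tnnc2 lost its call without any one of 7 of the 9 arrays.

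Tacr2, the neurokinin receptor of gut smooth muscle, reached 7.34 to 8.65 in ZS knockout rats against 4.38 to 6.00 in ZS unedited rats, with 4 of the 5 unedited values at 4.76 or below (log2 change 3.25 ± 0.40, adjusted p = 3.90e-07). Id3, an inhibitor of basic helix-loop-helix transcription factors and a target of BMP signalling, was at 7.23, 7.79, 8.10 and 7.62 in ZS knockout rats, against 5.21, 4.56, 5.03, 5.61 and 4.81 in ZS unedited rats. The groups were more than 1.5 log2 units apart at their nearest values (change 2.64 ± 0.26, adjusted p = 1.88e-08). Id3 passed under all 24 alternative settings, with changes between 2.12 and 3.01.

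Cd36, the fatty acid scavenger receptor, was at 7.33 to 8.41 in ZS knockout rats against 4.94 to 5.56 in ZS unedited rats (change 2.59 ± 0.34). Lrg1, a secreted glycoprotein that acts on vessels, was at 7.88, 8.11, 9.25 and 8.07 against 5.73 to 6.15 (change 2.39 ± 0.22), and Slc28a2, a nucleoside transporter, at 6.59 to 7.99 against 4.33 to 4.98 (change 2.60 ± 0.29). Each of the 3 kept its call under every setting that measured it. Stab1, a scavenger receptor of macrophages and endothelium, rose by 2.32 ± 0.33, and Cxcl13, the chemokine that attracts B cells, by 2.35 ± 0.36 (0.88, adjusted p = 0.0951, with the smooth muscle, skeletal muscle and macrophage list means as covariates); array 32 held the highest value of both, 9.69 for Stab1 and 10.97 for Cxcl13.

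The largest decreases included genes of the squamous epithelium. Serpinb7, a protease inhibitor of stratified epithelium, was at 6.00, 5.66, 5.12 and 6.12 in ZS knockout rats, against 7.74, 7.97, 8.04, 8.43 and 7.80 in ZS unedited rats (change -2.27 ± 0.35, adjusted p = 8.79e-06); a second probe set gave -2.23. Slurp1, a peptide that keratinocytes secrete, was at 8.58 to 9.93 against 10.63 to 11.65 (-1.79 ± 0.33). Prdm1, a repressor involved in keratinocyte terminal differentiation, was at 7.77 to 8.76 against 9.86 to 10.06 (-1.64 ± 0.25). Separate groups were required by the rule that picked these 3, and each was called under all 24 alternatives.

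Il1rn, the antagonist of the interleukin-1 receptor, was at 5.28, 5.57, 4.96 and 6.17 in ZS knockout rats, against 7.33, 7.25, 7.87, 7.38 and 7.34 in ZS unedited rats (-1.94 ± 0.21, adjusted p = 6.12e-08). The agonist Il1a moved the same way, with 5.99 to 7.72 against 8.01 to 8.79 (-1.33 ± 0.36, adjusted p = 0.00384). Il1rn was picked by a rule that required separate groups, and Il1a did not overlap either, which held for 38% of all genes. The other large decreases were Marchf3, a membrane ubiquitin ligase (-2.00), Hpd of tyrosine breakdown (-1.84), Ift70b of ciliary transport (-1.77), Plaat5, a phospholipid acyltransferase (-1.69), Acp3, an acid phosphatase (-1.63), Cryba4, a crystallin (-1.95), Acot1, an acyl-CoA thioesterase (-1.79), Nom1 (-1.67), Map2, a microtubule-associated protein (-1.95), Syt16 of the synaptotagmin family (-2.54) and Fgf3, a fibroblast growth factor (-2.19). Fgf3 was not called without array 32 (adjusted p = 0.0727), the other probe set of Map2 gave -0.60, and the 2 others of Nom1 gave -1.18 and 0.01.

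**Figure D2:**
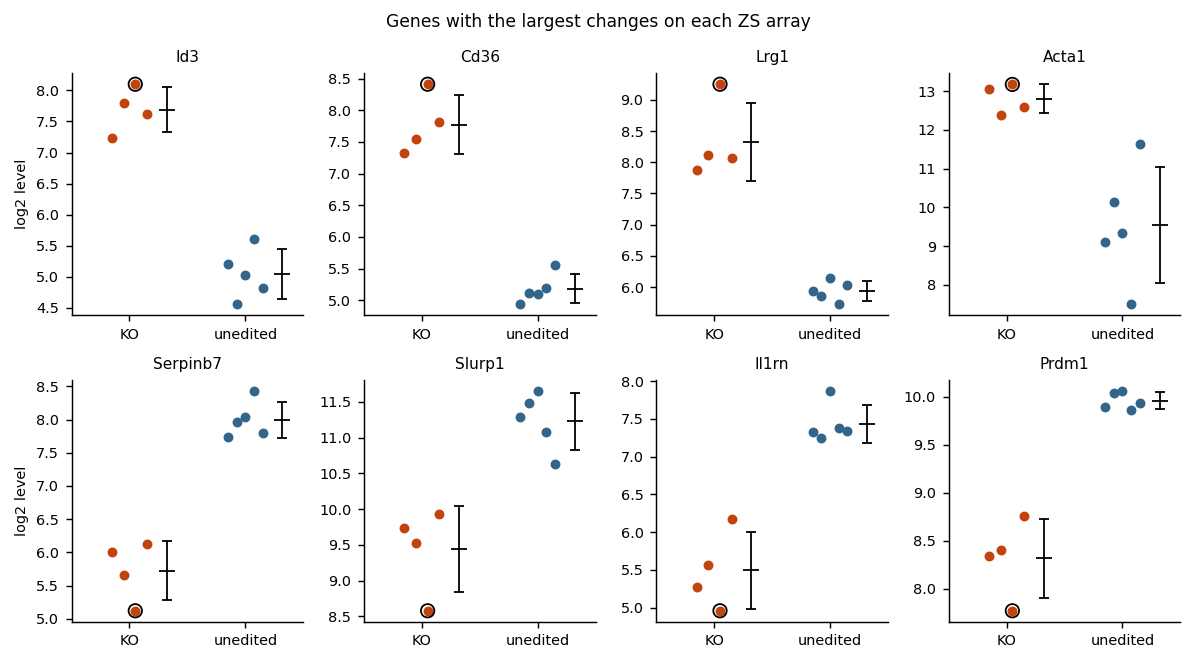
Log2 level of 8 of the genes with the largest changes on each ZS array, knockout (KO) at left and unedited at right; the upper row rose and the lower row fell in knockout rats. Bars are mean ± SD and the circled point is knockout array 32; Id3 lies between 7.23 and 8.10 in knockout rats, above all unedited values, and Acta1 spreads most among unedited rats.

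Smooth muscle genes were higher in ZS knockout rats. Of 17 smooth muscle genes 16 rose and none fell, with a median change of 1.35 log2 units against -0.01 over all genes. Myl9, a myosin light chain, was at 12.11, 12.15, 12.67 and 11.82 in ZS knockout rats, against 9.85, 9.57, 9.25, 10.94 and 9.77 in ZS unedited rats (2.31 ± 0.53, adjusted p = 0.000845). Myocd, the coactivator that switches on smooth muscle genes, rose by 1.54 ± 0.19 and Kcnmb1, a potassium channel subunit, by 0.98 ± 0.20, although unedited array 19 reached the knockout range for Kcnmb1 (4.92 against 4.82 to 5.69). The summed picture was the same: the list averaged 10.31, 10.29, 10.92 and 9.99 on knockout arrays 30 to 33, against 8.49 to 9.70 on unedited arrays, without overlap. With the macrophage mean as covariate 2 of the 17 passed (median 0.94).

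Skeletal muscle, which forms the outer coat of the rat oesophagus, was less even. Of 25 genes 11 rose and 1 fell, the median was 1.68, and the list means overlapped, 7.84 to 9.08 in ZS knockout rats against 5.49 to 8.44 in ZS unedited rats. Ckm, muscle creatine kinase, ranged from 10.65 to 11.93 in ZS knockout rats and from 5.73 to 10.72 in ZS unedited rats (2.79 ± 1.08, adjusted p = 0.0346, and 0.0855 without array 32), and Myh1, a fast myosin heavy chain, rose by 0.51 ± 0.11. Pvalb, a calcium buffer of fast fibres, fell by 1.37 on the log2 scale (adjusted p = 0.0282, and 0.111 without array 32). Without array 32 only 3 of the 25 passed, and 3 passed with the beta-actin difference as covariate. In bulk tissue a larger number of cells of a type and more RNA per cell cannot be told apart, here and for every cell type below.

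Connective tissue and vessel genes were also higher. Of 25 fibroblast and matrix genes 17 rose and none fell (median 0.96), but with the smooth muscle, skeletal muscle and macrophage means together as covariates none rose and 7 fell. Mgp, matrix Gla protein, was at 10.87 to 12.17 in ZS knockout rats against 9.56 to 10.27 in ZS unedited rats (1.69 ± 0.33), and Col6a1, a type VI collagen chain, at 9.23 to 10.91 against 8.23 to 8.41 (1.64 ± 0.30). The main fibrillar collagens split: Col1a2 rose (1.44), while Col1a1, at 8.30 to 10.32 against 8.08 to 9.36, did not pass (adjusted p = 0.219). All 16 endothelial genes measured rose (median 0.99), where 24.9% of all genes did. With the macrophage mean as covariate 5 of the 16 passed (median 0.56), and with the 3 covariates together 3 did (median 0.34). The list mean was 7.29, 7.16, 7.97 and 7.17 on knockout arrays against 6.27 to 6.58 on unedited arrays. Examples are the junction proteins Esam (8.17 to 8.98 against 6.61 to 7.42, 1.55 ± 0.19) and Pecam1 (1.38 ± 0.22) and the VEGF receptor Kdr (1.22 ± 0.22); Rasip1, which guides vessel formation, rose by 0.80 on the probe set used, but its other probe sets gave -0.51 and 0.30.

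Of 13 adipocyte genes 4 rose and 2 fell (median 0.11, and -0.16 with median centring), near the 24.9% and 25% of all genes. On the deposited values 7 rose and 1 fell, with median centring 4 rose and 5 fell, and without array 32 the counts were 3 and 1. Plin4 (a lipid droplet protein, 1.34) and Lpl (lipoprotein lipase, 1.39) rose, whereas Adipoq, the fat cell hormone, fell by 0.45 and Plin1 and Lep, also fat cell genes, changed by 0.01 and -0.07 without passing. Of 6 erythroid genes none rose and 4 fell, by 0.26 to 0.58 on the log2 scale, while on the deposited values 1 rose and 1 fell. Epb42, a red cell membrane protein, was at 3.15 to 3.41 in ZS knockout rats against 3.73 to 4.05 in ZS unedited rats (-0.58 ± 0.08). Slc4a1, the red cell anion exchanger, fell by 0.34, but its other probe set gave 0.26, and on the deposited values its change was 0.07. Of the 6, Hbb, beta globin, with 6.31 to 8.16 against 6.32 to 7.40, did not pass.

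**Figure D3:**
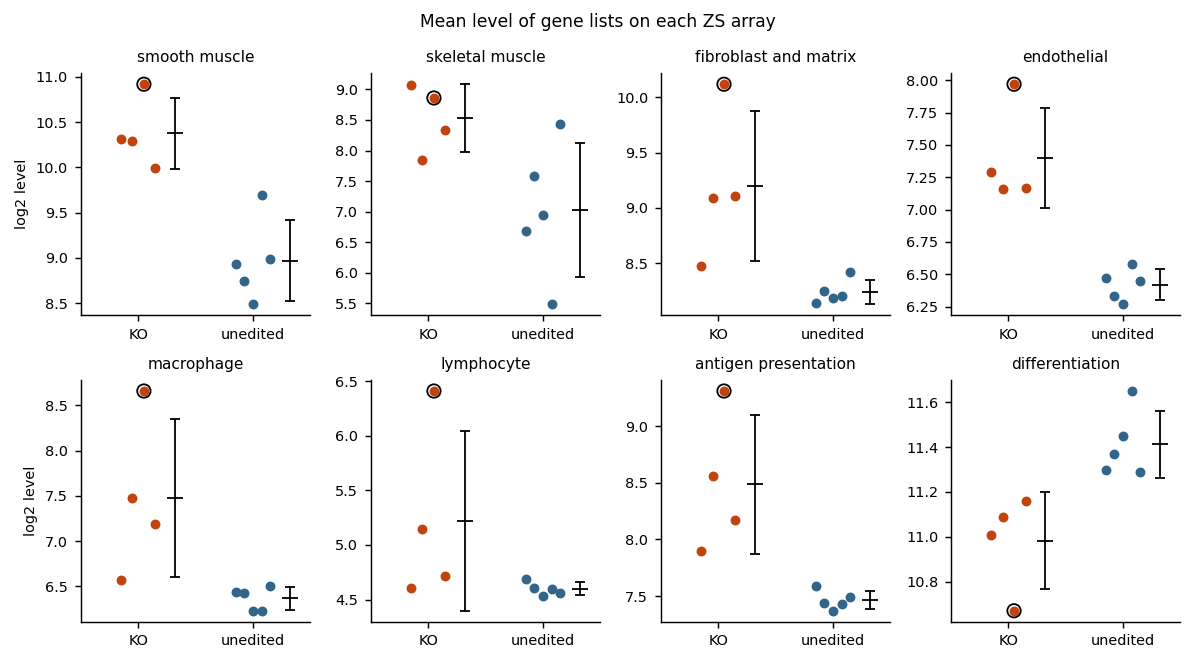
Mean log2 level of 8 gene lists on each ZS array, knockout (KO) at left and unedited at right, with mean ± SD and knockout array 32 circled. Smooth muscle and endothelial means do not overlap, skeletal muscle and lymphocyte means do, and array 32 is the highest array for smooth muscle, fibroblast, endothelial, macrophage, lymphocyte and antigen presentation genes and the lowest for differentiation genes.

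Macrophage genes were higher, most of all on array 32. Of 21 genes 18 rose and none fell (median 1.08), and the list averaged 6.57, 7.48, 8.66 and 7.19 on knockout arrays 30 to 33, against 6.23 to 6.50 on unedited arrays. Knockout array 30 lay only just above the unedited range. Laptm5, a lysosomal protein of blood cells, was at 8.45, 9.16, 10.29 and 8.80 in ZS knockout rats, against 7.22 to 7.49 in ZS unedited rats (1.75 ± 0.21, adjusted p = 3.26e-07), and Cd163, the haemoglobin scavenger receptor of tissue macrophages, at 5.80, 6.15, 7.44 and 6.30 against 4.01 to 4.78 (1.96 ± 0.30). C1qb of complement rose by 1.91 ± 0.34 and Ptprc, the pan-leukocyte marker CD45, by 1.49 ± 0.38. Without array 32 the list's median was 0.61 and 13 of the 21 passed.

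Lymphocyte genes were also highest on array 32. Of 19 genes 12 rose and 1 fell (median 0.62); the list averaged 4.61, 5.15, 6.41 and 4.72 in ZS knockout rats, against 4.53 to 4.69 in ZS unedited rats. The T cell receptor subunit gene Cd3d was at 4.55, 6.02, 8.32 and 5.01 against 4.28 to 4.69, and Cd247, its zeta chain, at 4.78, 5.42, 6.69 and 5.00 against 3.90 to 4.63. Array 30 was close to the unedited rats for both and array 32 far above them. The B cell marker Ms4a1, at 3.32 to 5.78 against 3.39 to 3.56, did not pass (adjusted p = 0.0701), and Mzb1, a plasma cell protein, fell by 0.50 on the log2 scale. Mzb1 passed under 23 of 24 alternatives, with a weakest change of -0.05 (adjusted p = 0.689). Without array 32 the list's median was 0.25, with 9 of 19 higher, and with the macrophage mean as covariate none rose and 2 fell.

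Of 21 antigen presentation genes 16 rose and none fell (median 0.78), where 24.9% and 25% of all genes did. With the macrophage mean as covariate 5 of the 21 passed (median 0.20). RT1-CE10, a class I gene of the rat major histocompatibility complex, was at 6.00, 6.62, 7.07 and 6.64 in ZS knockout rats, against 4.70, 4.34, 4.63, 4.69 and 4.68 in ZS unedited rats (1.97 ± 0.17, adjusted p = 1.55e-09). RT1-Da, a class II chain, was at 10.63, 11.62, 12.44 and 10.94 against 9.15 to 9.78 (1.94 ± 0.23), and its chaperone Cd74 rose by 1.55 ± 0.22. Groups did not overlap for these 3, which held for 38% of all genes. Outside the class I and II chains, the immunoproteasome subunit Psmb9 (1.40), the peptide transporter Tap1 (0.77) and beta-2 microglobulin B2m (0.67) rose. RT1 genes are near-identical copies that vary between rats, so a probe set can also report which copy or allele a rat carries: the probe set used for RT1-Bb gave 2.08 (adjusted p = 0.0945) and its other probe set -3.68. Without array 32, 15 of the 21 were still higher.

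Of 26 interferon-inducible genes 13 rose and 1 fell (median 0.45), where 24.9% and 25% of all genes did. With the macrophage mean as covariate 4 of the 26 rose (median 0.25). Irf1, a factor induced by interferon gamma, was at 6.43, 7.22, 8.67 and 6.66 in ZS knockout rats, against 4.86 to 5.65 in ZS unedited rats (2.01 ± 0.28, adjusted p = 1.96e-06), and Ifitm3, a membrane protein that blocks virus entry, at 11.13 to 12.21 against 10.30 to 10.64 (1.10 ± 0.17). The GTPases Igtp and Gbp2 each rose by 1.56. The chemokine Cxcl9 was at 4.10, 6.20, 7.94 and 4.30 against 3.53 to 4.91 (1.54 ± 0.51, adjusted p = 0.0135, and 0.133 without array 32). Isg15, a ubiquitin-like protein induced by type I interferon, was at 5.57 to 6.84 against 5.72 to 7.02 (change 0.00), and Ifit1 of the same response at 4.45 to 4.76 against 4.53 to 4.85 (-0.04). Neither passed.

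Promoters of the risers on the antigen presentation and interferon lists are shown because many genes of these lists carry the same short element. The letters GAAANNGAAA, or their reverse complement TTTCNNTTTC, resemble the interferon-stimulated response element, the site of interferon regulatory factors. They occur in 3.77% of 27457 RefSeq promoters on build GRCr8 (250 bases before to 50 after the start) and in 2.99% of 11733 promoters of measured genes, against 14 of 21 promoters on the interferon list and 7 of 19 on the antigen presentation list. The 4 largest risers with a match were as follows, with the matched letters in capitals.
Igtp, chr10:42874797-42875096, plus strand: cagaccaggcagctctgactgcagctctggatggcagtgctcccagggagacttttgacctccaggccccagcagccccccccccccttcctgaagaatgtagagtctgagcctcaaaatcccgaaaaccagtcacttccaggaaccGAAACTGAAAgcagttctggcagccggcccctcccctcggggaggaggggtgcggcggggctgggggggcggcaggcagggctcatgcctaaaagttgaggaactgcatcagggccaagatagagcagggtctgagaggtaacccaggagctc
Gbp2, chr2:234005477-234005776, plus strand: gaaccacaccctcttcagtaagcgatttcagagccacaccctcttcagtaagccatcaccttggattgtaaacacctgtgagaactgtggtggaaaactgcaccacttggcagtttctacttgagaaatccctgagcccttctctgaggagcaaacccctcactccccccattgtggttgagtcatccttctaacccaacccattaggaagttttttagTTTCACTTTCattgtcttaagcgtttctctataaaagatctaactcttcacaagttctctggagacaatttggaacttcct
Ifi44l, chr2:243328473-243328772, plus strand: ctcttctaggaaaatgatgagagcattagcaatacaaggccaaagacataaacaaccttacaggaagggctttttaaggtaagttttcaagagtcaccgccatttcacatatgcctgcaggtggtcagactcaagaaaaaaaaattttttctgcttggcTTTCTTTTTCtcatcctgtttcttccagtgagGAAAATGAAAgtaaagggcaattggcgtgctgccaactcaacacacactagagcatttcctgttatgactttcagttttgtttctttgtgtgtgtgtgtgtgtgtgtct
RT1-S3, chr20:2675278-2675577, plus strand: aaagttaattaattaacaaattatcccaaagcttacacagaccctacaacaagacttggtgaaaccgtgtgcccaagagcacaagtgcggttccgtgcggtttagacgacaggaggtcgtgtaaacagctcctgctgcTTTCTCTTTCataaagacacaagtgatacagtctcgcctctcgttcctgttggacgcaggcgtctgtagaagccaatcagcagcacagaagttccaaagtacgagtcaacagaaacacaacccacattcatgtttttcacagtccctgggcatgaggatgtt
Igtp, Gbp2 and RT1-S3 hold 1 match each and Ifi44l holds 2. Within the interferon list, 8 of 14 genes with a match rose and 4 of 7 without one. On the antigen presentation list the counts were 5 of 7 with a match and 9 of 12 without. A rise was thus about as frequent without the letters in this window as with them.

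Of 16 neutrophil and mast cell genes 2 rose and 2 fell (median 0.14, and -0.03 with median centring), and without array 32 there was 1 of each. On the deposited values 7 rose and 1 fell, and with median centring none rose and 3 fell. Cxcr2, the neutrophil chemokine receptor, was at 5.59 to 6.42 in ZS knockout rats against 6.81 to 7.32 in ZS unedited rats (-0.98 ± 0.21), and Csf3r, the receptor of the granulocyte growth factor, at 3.26 to 3.69 against 2.99 to 3.30 (0.36 ± 0.08). The alarmins S100a8 and S100a9, inflammation proteins also made by stressed keratinocytes, varied between rats far more than between groups. S100a8 was at 6.37, 5.41, 3.50 and 9.18 in ZS knockout rats, against 6.37, 7.32, 9.36, 3.97 and 6.73 in ZS unedited rats (adjusted p = 0.637), and S100a9 at 4.05 to 9.14 against 5.33 to 9.44 (adjusted p = 0.556).

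Of 32 NF-kB and inflammation genes 9 rose and 5 fell (median 0.14, and -0.02 with median centring), where 24.9% and 25% of all genes did. On the deposited values 14 rose and 2 fell, and with median centring 8 rose and 8 fell. Rela, the p65 subunit, was at 8.89 to 9.24 in ZS knockout rats against 8.43 to 8.60 in ZS unedited rats (0.56 ± 0.07), and the adhesion molecules Icam1 and Vcam1 rose by 0.94 and 1.89, with Vcam1 overlapping between groups. Ptgs2, cyclooxygenase-2, lay at the bottom of the scale in both groups, 3.03 to 3.18 against 3.04 to 3.30.

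Published miR-31 targets were called about as often as other genes. Of 35 measured, 9 rose and 11 fell, where 24.9% and 25% of all genes did, and their median change was 0.02. On the deposited values 16 rose and 4 fell (median 0.26), and with median centring 7 rose and 15 fell (median -0.20). Stk40 was the clearest: 8.42, 8.34, 8.40 and 8.49 in ZS knockout rats, against 7.49, 7.44, 7.68, 7.63 and 7.53 in ZS unedited rats, a 1.81-fold increase (0.86 ± 0.08, adjusted p = 5.08e-09). It passed under all 24 alternatives, between 0.68 and 1.14. Fgf7, a growth factor that fibroblasts make for epithelium, was at 4.90 to 5.44 against 4.24 to 4.43 (0.85 ± 0.11). Bap1, a tumour suppressor deubiquitinase, rose little but evenly, 9.01 to 9.10 against 8.68 to 8.77 (0.32 ± 0.06), and Axin1, a scaffold of the beta-catenin destruction complex, by 0.42 ± 0.05.

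Other risers among the targets were Tns1 (a focal adhesion protein, 1.18), Sele (E-selectin of activated endothelium, 1.06), Dact3 (a Wnt inhibitor, 1.05, with -0.22 and 0.04 on its other probe sets), Map3k14 (the NF-kB inducing kinase, 0.54) and Spry3 (a Ras pathway inhibitor, 0.33). Tns1, Dact3 and Sele did not pass with the smooth muscle, skeletal muscle and macrophage means together as covariates (adjusted p = 0.622, 0.96 and 0.511), whereas Stk40 did (0.93, adjusted p = 7.47e-06). The targets that fell were led by Dlx3, a homeobox factor of keratinocyte differentiation, at 8.23, 8.14, 7.25 and 8.34 against 9.04 to 9.29 (-1.17 ± 0.18). Pax9, a factor that maintains squamous oesophagus, fell by 0.63 on the log2 scale, Itga5 by 0.53 and the Ras inhibitor Rasa1 by 0.44, although another probe set of Rasa1 gave 0.43. Egln3, the prolyl hydroxylase PHD3, was at 9.64, 9.32, 8.88 and 9.85 against 8.73 to 9.83 (0.04, adjusted p = 0.906), and Lats2, a Hippo kinase, at 9.27 to 9.72 against 9.17 to 9.30 (0.21, adjusted p = 0.113).

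**Figure D4:**
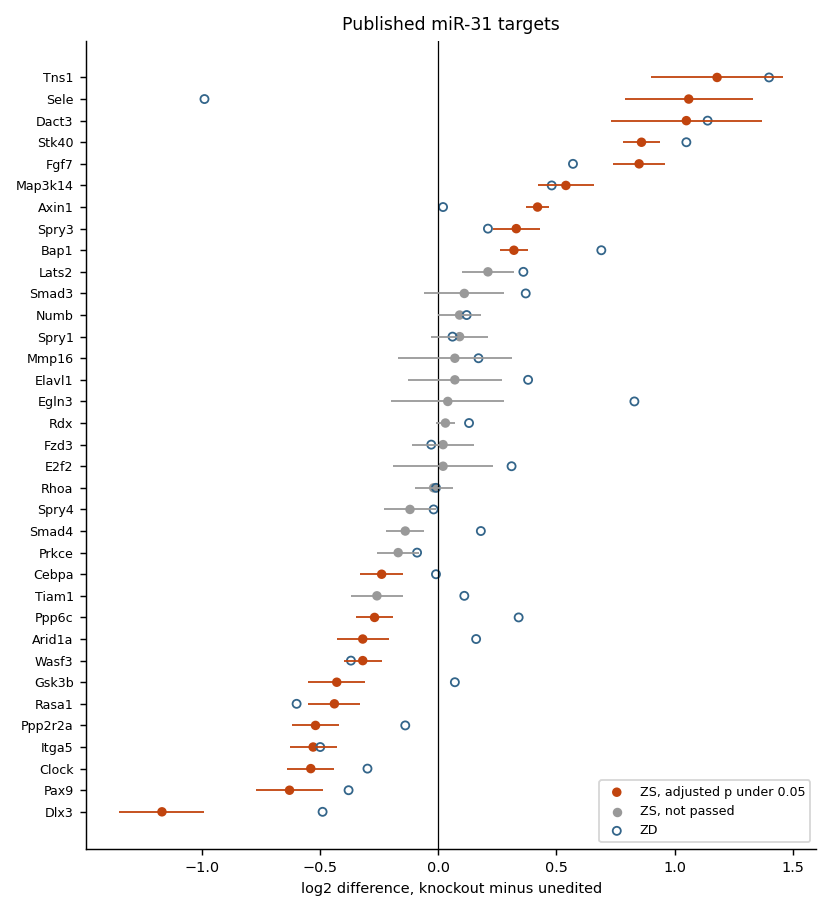
Log2 difference, knockout minus unedited, of 35 published miR-31 targets on the ZS diet (filled points with SE bars; orange passed an adjusted p of 0.05, grey did not) and on the ZD diet (open circles). Points lie on both sides of 0: 9 passed above it and 11 below it on ZS, and Sele and Ppp6c have opposite signs on the 2 diets.

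Of 37 genes of differentiation and the cornified envelope 1 rose and 16 fell, where 24.9% and 25% of all genes did (median -0.31, and -0.54 relative to all genes on the deposited values). Their mean was 11.01, 11.09, 10.67 and 11.16 on knockout arrays 30 to 33, against 11.29 to 11.65 on unedited arrays. Sprr3, the main small proline-rich protein of oesophagus, was at 13.36 to 13.66 in ZS knockout rats against 13.80 to 13.98 in ZS unedited rats (-0.38 ± 0.06). Dsc1, a desmosomal cadherin, was at 8.13 to 9.21 against 9.67 to 10.13 (-1.28 ± 0.20), Ivl, the envelope precursor involucrin, at 4.96 to 5.64 against 5.89 to 8.90 (-1.58 ± 0.51), and Grhl1, a factor that controls desmosomal cadherins, at 9.57 to 10.73 against 10.93 to 11.34 (-0.83 ± 0.16). With the muscle and macrophage means together as covariates 4 of the 37 fell and 2 rose, and without array 32 the median was -0.18, with 13 lower.

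Among 19 basal and stress keratin genes 3 rose, below the share of all genes, and none fell on this scale (median 0.25). With median centring 3 rose and 6 fell (median -0.13). The 3 were adhesion genes: Itgb4, the hemidesmosome integrin, at 9.08 to 9.98 in ZS knockout rats against 8.18 to 8.72 in ZS unedited rats (1.11 ± 0.15), Itgb1 (0.78 ± 0.14) and the laminin chain Lama3 (0.69 ± 0.24). Krt14, the basal keratin, was at 12.88 to 13.15 against 12.50 to 12.59, without overlap, but did not pass (0.45 ± 0.20, adjusted p = 0.0613). It passed under 4 of 24 alternatives. The fit takes the spread of a gene from all 30 arrays, and the SD of Krt14 was 0.60 in ZD unedited rats, against 0.11 in ZS knockout and 0.04 in ZS unedited rats.

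Few cell cycle genes passed. Of 35 genes only Ccnd1 and Kif11 passed, where 49.8% of all genes did, and the median was -0.20, or -0.09 relative to all genes on the deposited values. Mki67, the proliferation marker, was at 8.25, 7.46, 7.45 and 8.29 in ZS knockout rats, against 8.08 to 8.70 in ZS unedited rats (adjusted p = 0.243). The fit takes the spread of a gene from all 30 arrays. For Mki67 the SD was 0.64 in ZD knockout and 0.91 in ZD unedited rats, against 0.47 in ZS knockout and 0.25 in ZS unedited rats. A gene that did not pass is thus not shown to be equal in the ZS groups. Ccnd1, cyclin D1, was at 10.03 to 10.29 against 8.69 to 9.28 (1.12 ± 0.18, adjusted p = 1.19e-05) and passed under all 24 alternatives. Kif11, a mitotic kinesin, was lower (-0.84 ± 0.34) and lost its call without any one of 6 of the 9 arrays.

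Of 25 zinc transport and metallothionein genes 6 rose and 9 fell (median -0.25), where 24.9% and 25% of all genes did. On the deposited values 10 rose and 6 fell (median 0.08, which is -0.17 relative to all genes), and with median centring 4 rose and 14 fell. Slc39a4 (ZIP4), the importer mutated in inherited zinc deficiency, was at 4.68 to 4.84 in ZS knockout rats against 5.21 to 5.71 in ZS unedited rats (-0.76 ± 0.11), and Slc39a1 (ZIP1) at 10.71 to 10.97 against 11.27 to 11.54 (-0.53 ± 0.07). The exporters Slc30a1 (-1.26) and Slc30a7 (-1.05) fell too, whereas the importer Slc39a8 was at 4.99 to 5.60 against 3.96 to 4.63 (0.95 ± 0.18). The metallothioneins Mt1 and Mt2A, which zinc induces through Mtf1, did not pass (-0.31 and 0.29), and Mtf1 itself fell by 0.38 on the log2 scale. Car2, a carbonic anhydrase that needs zinc, was at 6.51 to 7.46 against 5.13 to 7.33 (adjusted p = 0.202).

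Of 22 immediate early genes 4 rose and 5 fell, near the shares of all genes (median -0.18, and 0.10 on the deposited values). With median centring 2 rose and 10 fell. Klf2, a factor of quiescent endothelium and T cells, was at 9.83, 9.51, 10.13 and 9.27 in ZS knockout rats, against 7.46 to 8.11 in ZS unedited rats (1.96 ± 0.23), although its 4 other probe sets ran from -0.25 to 2.74. The AP-1 subunit Junb was at 8.17 to 8.53 against 9.19 to 9.43 (-1.01 ± 0.13), and the zinc finger factor Egr2 at 5.64 to 6.42 against 6.90 to 7.36 (-1.23 ± 0.17, with -0.13 on its other probe set). Of 14 heat shock genes 5 rose and none fell, with median centring leaving 1 higher and 3 lower. The chaperones Hsph1 (1.10 ± 0.27) and Hsp90ab1 (0.50 ± 0.11) led by adjusted p. Hsp90ab1 passed under 23 of 24 alternatives, with a weakest change of 0.01 (adjusted p = 0.97).

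Several glycolysis enzymes were higher. Of 29 hypoxia and glycolysis genes 13 rose and 1, the mitophagy receptor Bnip3l (-0.87), fell, where 24.9% and 25% of all genes did. The median was 0.31, and 0.24 relative to all genes on the deposited values. With median centring 8 rose and 5 fell (median 0.04). The list mean was 8.78 to 8.87 on knockout arrays against 8.42 to 8.55 on unedited arrays. Slc2a3, the glucose transporter GLUT3, was at 5.45, 5.45, 6.15 and 5.40 in ZS knockout rats, against 4.19, 3.58, 3.74, 3.94 and 3.85 in ZS unedited rats (1.75 ± 0.14, adjusted p = 3.90e-10), with 0.25 on its other probe set. Of the enzymes, 4 with separate groups are given here: Gpi, glucose phosphate isomerase, at 10.54 to 10.75 against 9.59 to 10.05 (0.76 ± 0.10), Eno1, enolase, at 11.51 to 12.00 against 10.52 to 10.99 (1.00 ± 0.16), Pfkl, phosphofructokinase, at 7.29 to 7.56 against 6.33 to 6.64 (0.98 ± 0.14) and Ldha, lactate dehydrogenase, at 11.72 to 11.93 against 11.22 to 11.55 (0.54 ± 0.17). Separate groups, for which these 4 enzymes are given, held for 38% of all genes. Of the hypoxia targets, Vegfa (0.51) and Ndrg1 (1.20, with 0.31 on its other probe set) passed, and Car9, Slc2a1 and Adm did not (-0.13, -0.13 and 0.31).

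Of 29 Nrf2 and xenobiotic genes 11 rose and 3 fell (median 0.29), where 24.9% and 25% of all genes did. With median centring 8 rose and 7 fell (median -0.02). Ephx1, microsomal epoxide hydrolase, was at 7.92, 8.64, 8.45 and 8.31 in ZS knockout rats, against 6.88 to 7.12 in ZS unedited rats (1.31 ± 0.15), and the glutathione transferase Gstt1 at 7.36 to 7.87 against 6.78 to 7.10 (0.57 ± 0.11). Gstp1 (0.76) and Nqo1 (0.62) rose as well, whereas the glutathione genes Gclm and Slc7a11 fell by 0.43 and 0.72.

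Genes of the 4 regulatory lists left passed in both directions on this scale, where 24.9% and 25% of all genes rose and fell. On the deposited values 8 clock genes rose and 2 fell, 3 p53 response genes rose and 3 fell, 10 Hippo genes rose and none fell, and 8 Ras and MAPK inhibitors rose and 1 fell. Of all 14217 genes, 6899 rose and 1220 fell on that scale. With median centring 3 clock genes rose and 3 fell, and 3 p53 response genes rose and 10 fell. On the Hippo list 4 then rose and 8 fell, and on the Ras and MAPK list 1 rose and 6 fell. Of all genes 2375 rose and 6323 fell with median centring. Without array 32 the count of fallers was 3 on both the Hippo and the Ras and MAPK lists. Among 17 circadian clock genes 3 rose and 2 fell, with Per1 at 8.10 to 8.57 in ZS knockout rats against 7.21 to 7.86 in ZS unedited rats (0.80 ± 0.19) and Clock at 9.41 to 10.05 against 10.19 to 10.49 (-0.54 ± 0.10). Among 16 p53 response genes 3 rose and 7 fell: Tp53inp1, an autophagy and apoptosis gene, fell by 0.98 on the log2 scale, Gadd45g, a stress gene, rose by 1.07, and Cdkn1a, the cell cycle inhibitor p21, did not pass (-0.31). Among 22 Hippo pathway genes 7 rose and 5 fell, with the kinase Lats1 lower (-0.44 ± 0.08) and the factor Tead4 lower on the probe set used (-0.45, other probe sets -0.37 and 0.16; 0.00 on the deposited values). Among 17 Ras and MAPK inhibitors 3 rose and 5 fell; Dusp2, a phosphatase of lymphocytes, rose by 1.58 ± 0.26 with array 32 highest at 7.57, and Rasa2, a GTPase-activating protein, was at 4.28 to 4.42 against 4.85 to 5.21 (-0.80 ± 0.10).

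Was the genotype difference the same on both diets? On ZD, where knockout and unedited rats form a separate set of samples, 5800 genes were called (40.8%). Genes called on both diets in the same direction numbered 3903, which is 55.1% of the ZS calls and 67.3% of the ZD calls. Experiment and genotype coincide on both diets, so this overlap holds both. The test of the difference between diets called 1329 genes (9.35%), 704 with a higher and 625 with a lower genotype difference on ZS. The beta-actin difference and the macrophage list moved with it. Low beta-actin differences were found on ZS knockout arrays and not on ZD knockout arrays, and the macrophage list averaged 7.47 on ZS knockout and 6.37 on ZS unedited arrays, against 6.68 on ZD knockout and 6.70 on ZD unedited arrays. Other control probe sets also separated the knockout arrays of the 2 diets. Hexokinase differences were 1.42 to 1.59 on ZS knockout and -0.18 to 0.52 on ZD knockout arrays. The 5S rRNA probe set was at 5.30 to 5.81 on ZS knockout and 7.05 to 7.80 on ZD knockout arrays. Neither measure was used as a covariate, so their part in the count was not tested. With the beta-actin difference as covariate 213 genes passed, with the macrophage mean 262, and without array 32 737.

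Id3 averaged 7.69 in ZS knockout and 5.04 in ZS unedited rats, against 5.76 in ZD knockout and 5.55 in ZD unedited rats (difference between diets 2.43, adjusted p = 0.000257, and 0.0294 with the beta-actin covariate). Its relatives were looked at after this value was seen. Id1 differed between diets in the same direction (0.68 on ZS, -0.43 on ZD, difference 1.11, adjusted p = 0.0197), Id2 in the opposite one (-0.09 and 0.82, difference -0.91, adjusted p = 0.0259), and Id4 did not pass (0.62 and 1.77, adjusted p = 0.12). With the beta-actin covariate neither Id1 nor Id2 passed (0.97 and -0.75, adjusted p = 0.208 and 0.265). Egr2, noticed among the immediate early genes, was lower in knockout rats on ZS (-1.23) and higher on ZD (0.72), a difference of -1.95 (adjusted p = 1.37e-05, and 0.00249 with the beta-actin covariate).

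Among genes called on ZS, the largest differences between diets were Adh6a, an alcohol dehydrogenase (-1.74 on ZS, 2.14 on ZD), Slfn4, a schlafen gene of myeloid cells (1.26 and -1.26), Acot1 (-1.79 and 0.73), Cyp26b1, which degrades retinoic acid (-1.04 and 1.23), Cryba4 (-1.95 and 0.23), Hsd11b2, which inactivates glucocorticoids (-1.23 and 0.95), P2rx2, an ATP-gated channel (-1.17 and 0.94), Tnfrsf17, the plasma cell receptor BCMA (-1.40 and 0.70), and Ndrg1, a stress gene induced by hypoxia (1.20 and -0.89). Cyp26b1 was at 10.30, 9.90, 9.11 and 9.44 in ZS knockout rats against 10.55 to 11.11 in ZS unedited rats, and averaged 10.08 in ZD knockout and 8.85 in ZD unedited rats. Its interaction was -2.27 (adjusted p = 0.000485, and 0.0278 with the beta-actin covariate). With that covariate the interaction did not pass for Adh6a, Acot1, Hsd11b2, P2rx2 and Ndrg1 (adjusted p = 0.148, 0.211, 0.169, 0.162 and 0.133). Its size for these genes was then -3.40, -2.27, -2.09, -1.86 and 2.07, against -3.88, -2.52, -2.18, -2.11 and 2.09 without the covariate. Adh6a lost its ZS call without array 30, 32 or 33 among the knockout or 17 or 19 among the unedited arrays. Slfn4, Hsd11b2 and Ndrg1 lost theirs without array 32, and Hsd11b2 also without array 31. On ZS the other probe sets of Slfn4 and Ndrg1 gave -0.01 and 0.31. Those of Cyp26b1 and Tnfrsf17 gave -1.65 and -0.89, and those of P2rx2 gave -1.04 and -0.36. The ZS groups overlapped for Slfn4 and Adh6a.

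Of the 29 hypoxia and glycolysis genes, 14 had a higher genotype difference on ZS than on ZD and none a lower one. With the beta-actin covariate 2 of the 29 had a higher one, and with the macrophage mean 3. On ZD 4 of them rose and 11 fell. Hif1a, the oxygen-regulated factor itself, changed by 0.00 on ZS (adjusted p = 0.997) and was lower in knockout rats on ZD, 10.88 against 11.64 (-0.76). Its difference between diets passed (0.76, adjusted p = 0.00789, and 0.141 with the beta-actin covariate). Gpi averaged 10.64 in ZS knockout and 9.88 in ZS unedited rats, against 10.05 in ZD knockout and 10.14 in ZD unedited rats (interaction 0.85, adjusted p = 0.000733, and 0.0408 with the beta-actin covariate). Vegfa, the endothelial growth factor, rose by 0.51 on ZS and fell by 0.53 on ZD (interaction 1.04, adjusted p = 0.00145).

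**Figure D5:**
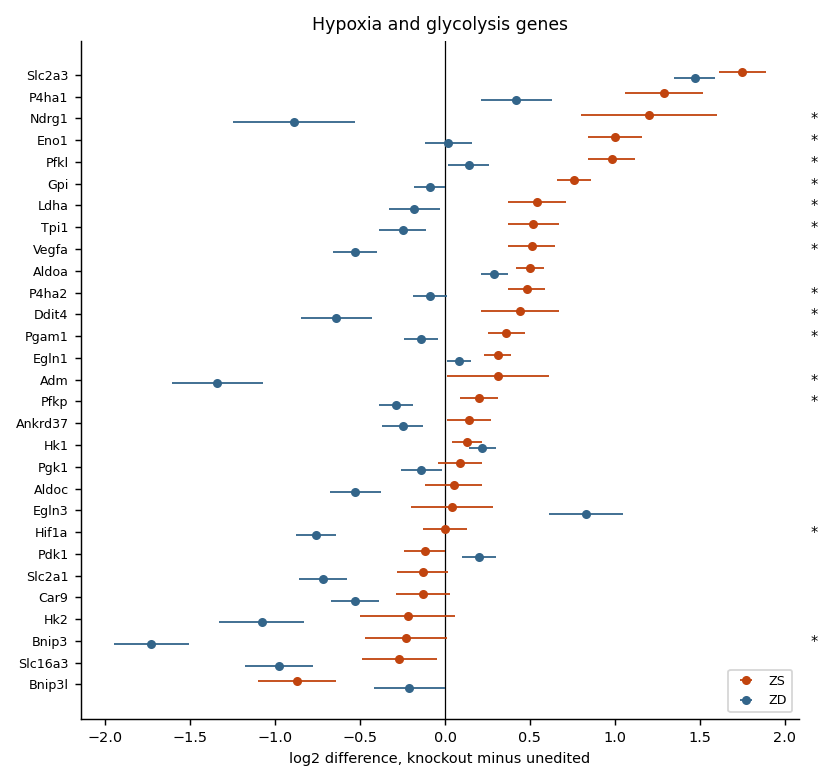
Log2 difference, knockout minus unedited, of 29 hypoxia and glycolysis genes on ZS (orange) and ZD (blue), with SE bars; an asterisk marks a difference between the diets that passed an adjusted p of 0.05. All 14 marked genes lie further right on ZS than on ZD.

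For Ptgs2 and Car2 the genotype difference passed on ZD and not on ZS. Ptgs2 averaged 3.13 in both ZS knockout and ZS unedited rats, against 3.31 in ZD knockout and 7.07 in ZD unedited rats (interaction 3.75, adjusted p = 0.0175, and 3.43, adjusted p = 0.172, with the beta-actin covariate). Car2 averaged 6.93 in ZS knockout and 5.89 in ZS unedited rats, against 7.71 in ZD knockout and 10.34 in ZD unedited rats (interaction 3.67, adjusted p = 0.0125, and 3.36, adjusted p = 0.144, with that covariate). Of the 17 smooth and 25 skeletal muscle genes none had an interaction past the threshold, where 9.35% of all genes did, and smooth muscle rose on ZD by a median of 1.93. The interaction was imprecise for such genes, at 1.21 ± 1.42 for Acta1, 0.64 ± 1.58 for Tnnc2 and -0.78 ± 0.71 for the smooth muscle actin Actg2. Muscle genes are thus not shown to be alike on both diets. Of 21 macrophage genes 12 had a higher genotype difference on ZS, where the median was 1.08 against -0.07 on ZD, but none with the beta-actin covariate.

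Genes beside Mir31 on chromosome 5 were also looked at, ordered by RefSeq position. Of the 10 measured named genes on each side, 6 rose, 5 fell and 9 did not pass, near the share of all genes, and their median absolute change was 0.27 against 0.28 over all genes. Cdkn2b, a cyclin-dependent kinase inhibitor 0.408 Mb away, was at 4.64 to 5.05 in ZS knockout rats against 5.38 to 5.56 in ZS unedited rats (-0.69 ± 0.14, adjusted p = 0.000194) and changed by -0.72 on ZD. Its neighbour Cdkn2a, at 3.17 to 3.38 against 3.32 to 3.64, was dim and did not pass (-0.26, adjusted p = 0.377). Klhl9, 0.261 Mb away on the other side, rose by 0.25, and Ifnb1, 0.647 Mb away, by 0.45 at dim levels of 3.49 to 3.66 against 2.97 to 3.32. Tek, a receptor of endothelium 6.01 Mb away, rose by 0.84 with the other endothelial genes.

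How much of the ZS difference stands under the alternatives? In the main setting and under each of 22 alternatives (all but the filter on dim genes and the test of every probe set), 922 genes were higher and 652 lower in ZS knockout rats, together 22.2% of the genes called. These alternatives include the muscle, macrophage, lymphocyte and beta-actin covariates and the fits without each array. Other probe sets are a further limit, since 2372 called genes had at least 1 more. For 46.6% of these another was called in the same direction and none in the opposite, and for 14.2% another was called in the opposite direction. Of the 1574 genes, 1169 were also called on ZD in the same direction and 486 had an interaction. Named here after their values were seen, the higher ones include the water channel Aqp1 (2.17), the complement inhibitor Serping1 (2.30), the G protein regulator Rgs16 (2.07), the neonatal Fc receptor Fcgrt (1.96) and filamin Flna (1.89). The lower ones include the neurofilament gene Nefh (-2.54, with overlapping groups), the cytokine Il36b (-1.61), the polymerase subunit Polr2k (-1.52), the chaperone Dnajb6 (-1.38) and Zfyve9, an adaptor of TGF-beta receptors (-1.49). From the lists, Stk40, Slc2a3, RT1-CE10, RT1-Da, Irf1, Klf2, Ccnd1, Ephx1 and Gpi were in the higher set, and Il1rn, Junb, Slc39a4 and Rasa2 in the lower set. Other probe sets of Slc2a3 and Klf2 reached down to 0.25 and -0.25.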

How the data were processed

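Total RNA of oesophageal epithelium was hybridised to Affymetrix rat expression arrays, 1 per rat. The authors deposited log2 expression, 1 value per probe set, made with Affymetrix Expression Console and RMA, per the submitters' processing notes; versions are not given in the sources used here. Of 31099 probe sets, 20826 carried 1 gene symbol in the platform annotation, 436 several and 9780 none that was used; 57 controls were left out of the tests. Each of 14217 genes was represented by its brightest probe set on average (4525 genes had several). All arrays were quantile normalized together, because the deposited medians of knockout arrays differed from the rest. One limma 3.58.1 model (R 4.3.3) with a coefficient per group was fitted to all 30 arrays, with eBayes and Benjamini-Hochberg adjustment, and checked on simulated data. Changes are log2 differences, knockout minus unedited. Detection calls were not used, and values near the lowest (2.11) have no order.

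The comparison, the 25 gene lists and the naming rule were chosen with earlier results of these data known. The rule names the 15 largest increases and decreases among called genes with separate groups, 2 called members per list by smallest adjusted p, 13 fixed genes and the 10 largest interactions. Other list members were chosen after their values were seen. Alternatives were the deposited scale, median centring, normalization or fit on the 9 ZS arrays, no dim genes, trended and robust eBayes, weighted arrays, other uses of probe sets, tissue covariates and leaving out each array. The lymphocyte, beta-actin and combined covariates were added after the data were seen. Labels number each rat once. The number of arrays limits precision. Sequences are from RefSeq, GRCr8.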

Additional observations from a re-analysis of the deposited data

Results flagged for a closer look

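In 21 of 256 groups of values tested (9 in ZS knockout and 12 in ZS unedited rats), 1 array lay far from the others of its group, where chance gives about 1 in 20. Knockout array 32 held 7 of these and unedited array 19 held 6. Array 32 stood above the other 3 knockout arrays for Lrg1 (9.25, others 7.88 to 8.11), Cxcl13 (10.97), Esam (8.98), Lpl (8.67), Slc2a3 (6.15) and the endothelial list mean (7.97), and below them for Tp53inp1 (3.93). Knockout array 31 stood above for Gadd45g (7.85) and Rasa2 (4.42). Unedited array 19 stood above for Tacr2 (6.00), Kcnmb1 (4.92), Esam (7.42), Tead4 (6.07) and Id4 (9.92), and below for the erythroid list mean (4.50). Unedited array 18 was high for Il1rn (7.87) and the Hippo list mean (7.99) and low for Laptm5 (7.22), array 20 was low for Acp3 (9.56) and Rasa2 (4.85), and array 17 was low for RT1-CE10 (4.34).

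Part of the next count was fixed in advance, since the rule named 10 genes for their large interaction. Most other genes were named for a large or clear ZS difference, which itself enters the interaction. The share over all genes is therefore given for scale only and is no test of the named genes. Id1 and Id2 were added after the interaction of Id3 was seen. By the limma interaction, the difference between knockout and unedited rats differed between diets for 37 of 103 named genes, against 9.35% of all genes. It was higher on ZS than on ZD, on the log2 scale, for Id3 (2.43), Slc28a2 (1.34), Cd36 (1.60), Lrg1 (1.53), Stab1 (1.42), Esam (0.84), Rasip1 (0.82), Lpl (1.48), Laptm5 (1.08), Csf3r (0.35), RT1-Da (1.26), Ifitm3 (0.80), Klf2 (1.02), Gpi (0.85), Ephx1 (0.72), Dusp2 (1.33), Ptgs2 (3.75), Car2 (3.67), Slfn4 (2.52), Ndrg1 (2.09) and Id1 (1.11). It was lower on ZS for Serpinb7 (-2.05), Marchf3 (-1.38), Cryba4 (-2.19), Il1rn (-1.37), Hpd (-2.00), Acot1 (-2.52), Slurp1 (-1.94), Prdm1 (-1.20), Acp3 (-1.41), Cxcr2 (-0.99), Adh6a (-3.88), Cyp26b1 (-2.27), Hsd11b2 (-2.18), P2rx2 (-2.11), Tnfrsf17 (-2.11) and Id2 (-0.91). Knockout arrays of the 2 diets also differed in the 3′ to 5′ beta-actin and hexokinase measures and in the 5S rRNA probe set. With the beta-actin measure as covariate 213 genes passed over the whole table in place of 1329.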

How the results depend on the processing

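Among 103 named genes 87 were called, and 47 of them passed under all of the 24 settings that measured them. Over 15 alternatives, 1354 comparisons of a named gene kept direction and side of the threshold, 30 turned sign while passing in neither setting, 119 lost the call, 18 gained it and 5 turned sign while passing in at least 1 of the settings. The 5 were Lpl with the smooth muscle, skeletal muscle and macrophage means together as covariates (-0.05), Slc4a1 (0.07) and Tead4 (0.00) on the deposited values, and Krt13 (-0.52) and Krt15 (-0.38) with median centring; the cause was not tested. The count of genes called, 7087, was 3681 with the macrophage covariate and 3293 with the 3 covariates together, and 5810 to 6819 with each array left out. The count at 2-fold or more, 851, was 1505 on the deposited values, 420 with the smooth muscle, 276 with the macrophage, 413 with the lymphocyte and 295 with the 3 covariates, and 480 (without knockout array 32) to 981 with each array left out. The count of differences between diets, 1329, was 262 with the macrophage, 405 with the lymphocyte, 213 with the beta-actin and 156 with the 3 covariates, and 737 (without knockout array 32) to 1705 with each array left out. With arrays left out, 890 comparisons of named genes kept direction and side of the threshold, 12 turned sign while passing in neither setting, 23 lost the call and 2 gained it; none that passed turned sign. No paired analysis was possible because each array number belongs to 1 rat and no number is shared between groups. Dim probe sets near the bottom of the scale limit what can be read of low genes.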
